A study of Homo sapiens with 15 samples.

Results

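Peaks at the ZNF zinc finger genes were examined in 786O cells, a human clear cell renal cell carcinoma (ccRCC) line, by CUT&RUN, in which an antibody directs a nuclease to release the chromatin fragments that a protein occupies. The members were the genes whose symbol is ZNF followed by digits and whose start site was the nearest protein-coding start to the summit, the highest point, of a called peak in any of 4 lists, on hg19 with GENCODE v44lift37. The rule found 54 of 476 annotated ZNF genes, with 108 of the 4873 peaks in the 4 lists together, whereas 2455 of 20136 protein-coding genes had a peak in any list. The 4 lists came from cells infected with lentivirus that expressed either a scrambled control hairpin (shControl) or a hairpin against BMAL1 (shBMAL1), each probed with an antibody to BMAL1 or to HIF2α. A list pooled 3 libraries, except for BMAL1 in shBMAL1 cells, which pooled 2, and 4 further IgG libraries carried no list and were not analysed here. The design therefore held 15 libraries in 6 groups of 1 cell line. The infected cells were selected with puromycin, and the time from selection to harvest and whether clones were picked were not given in the sources used here. Each list gives 1 value per site with no replicate spread and no read counts, so no difference between lists was tested. The members were selected on these same peak calls, and all counts and strengths below are descriptions.

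ZNF genes form the largest family of human transcription factors, whose tandem C2H2 fingers each contact a few bases of DNA. Many carry a KRAB domain that recruits the corepressor TRIM28 and the histone methyltransferase SETDB1 to silence transposable elements, and many of these genes sit in tandem clusters on chromosome 19 that arose by duplication. BMAL1 is the circadian bHLH-PAS factor that binds the E-box with CLOCK, and HIF2α is the hypoxia-inducible factor that binds the hypoxia response element with ARNT and drives ccRCC when VHL is lost.

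Summit sequences are shown for some of the most significant member peaks and for some of the members with an E-box. Each line holds 100 bases of hg19 at the summit of a shControl peak, or at the motif nearest to it, written 5′ to 3′ on the strand of the named ZNF gene. In the first pair, both BMAL1 peaks, capitals mark the GC box GGGCGG. The ZNF254 window, from a HIF2α peak, has no capitals, since it does not hold the core of the hypoxia response element (ACGTG or GCGTG, on either strand). In the last 5, capitals mark the E-box CACGTG. These came from BMAL1 peaks, except for the ZNF318 window, which came from a HIF2α peak.
ZNF414, chr19:8590592-8590691: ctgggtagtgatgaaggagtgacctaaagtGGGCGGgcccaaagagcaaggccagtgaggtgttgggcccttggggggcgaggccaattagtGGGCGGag
ZNF846, chr19:9896307-9896406: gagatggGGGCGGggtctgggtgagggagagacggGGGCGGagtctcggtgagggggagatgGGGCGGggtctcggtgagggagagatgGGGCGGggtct
ZNF254, chr19:24474695-24474794: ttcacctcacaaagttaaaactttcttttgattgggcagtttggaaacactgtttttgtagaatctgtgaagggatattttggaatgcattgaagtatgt
ZNF195, chr11:3444227-3444326: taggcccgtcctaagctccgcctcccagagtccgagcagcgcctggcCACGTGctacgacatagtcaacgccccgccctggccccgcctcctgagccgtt
ZNF217, chr20:52210900-52210999: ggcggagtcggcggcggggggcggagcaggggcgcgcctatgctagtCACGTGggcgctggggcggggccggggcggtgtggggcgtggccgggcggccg
ZNF318, chr6:43351740-43351839: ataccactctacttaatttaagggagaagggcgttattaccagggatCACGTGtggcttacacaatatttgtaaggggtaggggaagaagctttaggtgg
ZNF669, chr1:247289702-247289801: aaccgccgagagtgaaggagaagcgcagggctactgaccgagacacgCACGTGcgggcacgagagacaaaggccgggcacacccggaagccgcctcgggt
ZNF771, chr16:30418560-30418659: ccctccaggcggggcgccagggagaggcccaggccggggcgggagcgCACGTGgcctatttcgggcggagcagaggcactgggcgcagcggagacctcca

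A second set comes from the ZNF gene cluster on chromosome 19 between ZNF841 and ZNF761, a stretch chosen after the peak positions were seen. These are 5 of the shControl BMAL1 windows there, and capitals mark AGGCCCCGCC, the run of 10 bases that the most windows of the stretch had in common. The ZNF160 window is shown because it did not hold the run.
ZNF841, chr19:52599190-52599289: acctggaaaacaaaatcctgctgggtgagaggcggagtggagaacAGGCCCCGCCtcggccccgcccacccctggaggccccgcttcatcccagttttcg
ZNF701, chr19:53073427-53073526: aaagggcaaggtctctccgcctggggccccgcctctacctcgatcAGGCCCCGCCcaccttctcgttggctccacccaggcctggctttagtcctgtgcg
ZNF761, chr19:53935124-53935223: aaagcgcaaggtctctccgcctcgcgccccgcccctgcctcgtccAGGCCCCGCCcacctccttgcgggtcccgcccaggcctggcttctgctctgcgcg
ZNF845, chr19:53836889-53836988: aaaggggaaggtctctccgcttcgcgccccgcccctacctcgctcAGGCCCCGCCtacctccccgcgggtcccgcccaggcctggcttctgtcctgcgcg
ZNF160, chr19:53606741-53606840: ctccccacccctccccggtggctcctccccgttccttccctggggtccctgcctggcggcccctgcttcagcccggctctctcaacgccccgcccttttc

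BMAL1 was called at more ZNF genes than HIF2α, with 39 genes against 18 in shControl cells and 24 against 12 in shBMAL1 cells. The lists differ in length. With all lists shortened to 768 peaks by p, the counts were 22 against 17 in shControl cells and 24 against 10 in shBMAL1 cells. The 39 genes were 8.19% of all ZNF genes, next to 8.07% of all protein-coding genes with a BMAL1 peak in that list. The 18 HIF2α genes were 3.78% of ZNF genes, next to 4.81% of protein-coding genes. In shBMAL1 cells the shares were 5.04% for BMAL1, next to 3.57%, and 2.52% for HIF2α, next to 4.28%. ZNF genes thus had peaks at close to the rate of other genes in the shControl BMAL1 list, and the 95% Wilson interval of their share, 6.05 to 11.0%, spanned that rate. All such intervals here cover counting error over peaks or genes only. As peaks, they were 46 of 1812 in the shControl BMAL1 list, 20 of 1204 in the shControl HIF2α list, 26 of 768 in the shBMAL1 BMAL1 list and 16 of 1089 in the shBMAL1 HIF2α list.

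**Figure D1:**
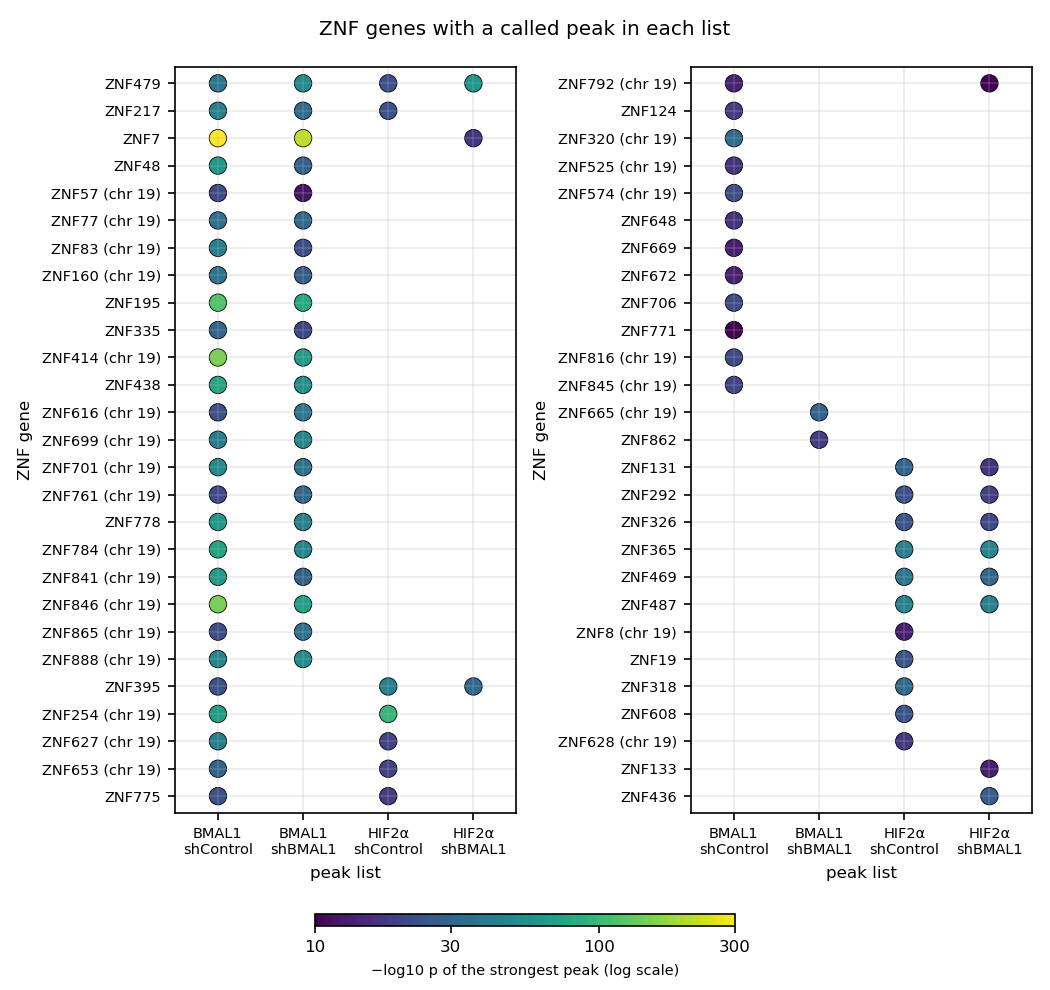
The 54 ZNF genes (vertical axis) and the 4 peak lists (horizontal axis), with a point where a gene had a called peak, coloured by the −log10 p of its strongest peak on a log scale. The block of 22 genes at the top left has points in both BMAL1 columns, and the 13 genes with HIF2α points alone are at the lower right. Points of both antibodies are at 9 of the 54 genes (16.7%), next to 18.2% of all genes with a peak. ZNF479 is the single gene with a point in all 4 columns.

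Over the 4 lists, 32 ZNF genes had BMAL1 peaks only, 13 had HIF2α peaks only and 9 had both. The 9 genes were 16.7% of the members (interval 9.02 to 28.7%), next to 448 of the 2455 protein-coding genes with a peak in any list (18.2%), so the antibodies coincided at ZNF genes at about the rate of all genes. Of the genes with BMAL1 peaks only, 20 lay on chromosome 19, and 21 had another ZNF gene as their neighbour among protein-coding genes. Of the genes with HIF2α peaks only, 2 lay on chromosome 19, and 1 of the 13 neighboured another ZNF gene. Over all 476 annotated ZNF genes, 301 (63.2%) neighboured another ZNF gene. The genes with HIF2α peaks only thus rarely had a ZNF gene as direct neighbour. Those with BMAL1 peaks only had one at about the rate of the whole family. Only the adjacent protein-coding genes were looked at, so cluster membership itself was not measured. ZNF816, for example, lies in the chromosome 19 cluster shown above but had no such neighbour. Some HIF2α peaks were also far from their gene, such as 208931 bp at ZNF365 and 175478 bp at ZNF469. How such distances bear on these counts was not tested.

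The most significant ZNF peak of all was the BMAL1 peak at the start of ZNF7, a KRAB zinc finger gene on chromosome 8, with a −log10 p of 299 and a fold enrichment of 21.3 in shControl cells. It ranked 47 of 1812 in its list, its summit lay 112 bp before the ZNF7 start, and in shBMAL1 cells the summit fell on the same base with a −log10 p of 215 and a fold of 25.4. ZNF846 had the highest fold enrichment of the members, 28.2 with a −log10 p of 147, at a summit 315 bp downstream of its nearest protein-coding start. A second ZNF846 peak, with a fold of 16.0, lay 419 bp downstream of another of its starts. ZNF438 (fold 11.3, −log10 p 77.3), ZNF784 (fold 14.3, −log10 p 74.6), ZNF841 (fold 20.2, −log10 p 65.1) and ZNF48 (fold 9.53, −log10 p 62.5) each had the summit within 1 kb of their own start. All of these peaks were called in shBMAL1 cells too.

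Several of the strongest peaks assigned to ZNF genes were not at those genes. The second most significant, assigned to ZNF414 with a −log10 p of 152 and a fold of 24.05, lay 11591 bp from the ZNF414 start, in an intron of MYO1F and 864 bp from a MYO1F start, which was not annotated as a protein-coding transcript start. ZNF414 had a second, weaker BMAL1 peak 357 bp downstream of its nearest protein-coding start, with a −log10 p of 20.1. The strongest ZNF195 peak (−log10 p 117, fold 12.8) lay 43831 bp upstream at the pseudogene FAM86GP, and the 31 bases at its summit occurred 3 times in the genome. A second ZNF195 peak, 36 bp before the ZNF195 start, had a −log10 p of 41.0. The ZNF778 peak (−log10 p 62.0) was 26519 bp downstream of the nearest ZNF778 start, outside protein-coding genes. The ZNF254 peak (−log10 p 66.9) was 204758 bp away, and its 31 summit bases occurred 131 times.

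BMAL1 peaks at ZNF genes lay mostly at start sites, and HIF2α peaks at ZNF genes mostly away from them. In shControl cells, 34 of 46 BMAL1 summits were within 1 kb of the nearest protein-coding start (73.9%, interval 59.7 to 84.4%), compared with 57.8% of all BMAL1 peaks. For HIF2α, 4 of 20 were that close (20%, interval 8.07 to 41.6%), compared with 20.3% of all HIF2α peaks, and 9 of 20 were over 10 kb away (45%, interval 25.8 to 65.8%), next to 60.0% of all HIF2α peaks. In shBMAL1 cells the counts within 1 kb were 19 of 26 for BMAL1 (73.1%), next to 65.5% of all, and 2 of 16 for HIF2α (12.5%), next to 17.5%. The BMAL1 summits in shControl cells had a median signed distance of −87.5 bp, just upstream of the start.

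**Figure D2:**
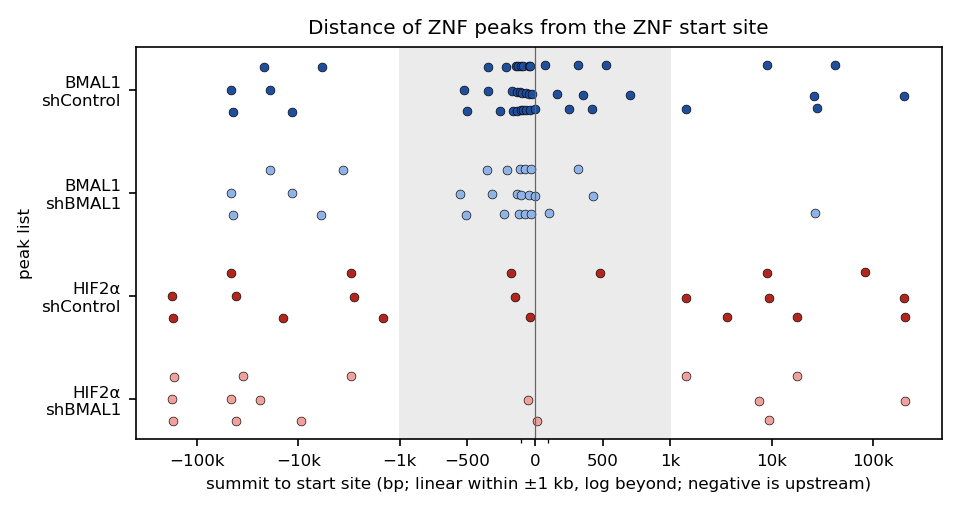
Signed distance from each ZNF peak's summit to the nearest protein-coding start site in bp (horizontal axis, linear within 1 kb in the grey band and log beyond), for the 4 lists (rows, spread vertically for visibility). Both BMAL1 rows crowd just left of 0, with 34 of 46 and 19 of 26 peaks in the band, whereas 4 of 20 and 2 of 16 HIF2α peaks are in it.

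Promoters were counted as the window from 1000 bp upstream to 100 bp downstream of the start of any annotated transcript, coding or not. By that measure 33 of 46 shControl BMAL1 peaks at ZNF genes were in a promoter (71.7%, interval 57.5 to 82.7%), next to 63.3% of all BMAL1 peaks. For HIF2α, 7 of 20 were (35%, interval 18.1 to 56.7%), next to 26.8%. In shBMAL1 cells the counts were 22 of 26 for BMAL1, next to 72.9% of all, and 4 of 16 for HIF2α, next to 24.98%. All 4 intervals held the share of the whole list. Some of these promoters belonged to noncoding neighbours, such as the pseudogene MTND2P6 at the ZNF479 peak and ZNF321P, 101 bp from the stronger of 2 BMAL1 peaks assigned to ZNF888. No ZNF peak summit lay in a coding exon of a ZNF gene. In the shControl BMAL1 list, 26 of 46 were outside protein-coding genes, 15 in introns, 4 in UTRs and 1 in another exon.

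On chromosome 19 the share of genes with a BMAL1 peak was smaller for ZNF genes than for genes of other families. In shControl cells, 23 of the 240 ZNF genes annotated on that chromosome had a BMAL1 peak (9.58%, interval 6.47 to 14.0%), and 218 of the 1240 other genes there did (17.6%, interval 15.6 to 19.8%). In shBMAL1 cells the same counts were 15 of 240 (6.25%) and 132 of 1240 (10.6%). For HIF2α they were 5 of 240 (2.08%) and 30 of 1240 (2.42%) in shControl cells, and 1 of 240 and 29 of 1240 in shBMAL1 cells. The 16 ZNF genes with a shControl BMAL1 peak elsewhere were 6.78% of the 236 on the other chromosomes.

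Chromosome 19 held 27 of the 46 BMAL1 peaks at ZNF genes in shControl cells (58.7%, interval 44.3 to 71.7%), next to 14.7% of all BMAL1 peaks and 50.4% of annotated ZNF genes. It held 16 of 26 in shBMAL1 cells (61.5%), next to 21.1% of all BMAL1 peaks. For HIF2α it held 5 of 20 (25%, interval 11.2 to 46.9%) and 1 of 16, next to 3.49% and 3.21% of all HIF2α peaks. The BMAL1 intervals held the share of ZNF genes annotated on that chromosome, while that share lay above both HIF2α intervals. Of the 27 BMAL1 peaks on chromosome 19, 22 were within 1 kb of a start of the ZNF gene they were assigned to. The remaining ZNF peaks were spread thinly, with no member on chromosomes 2, 3, 4, 9, 12, 14, 15, 17, 18, 22 or X, although each of those holds ZNF genes.

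**Figure D3:**
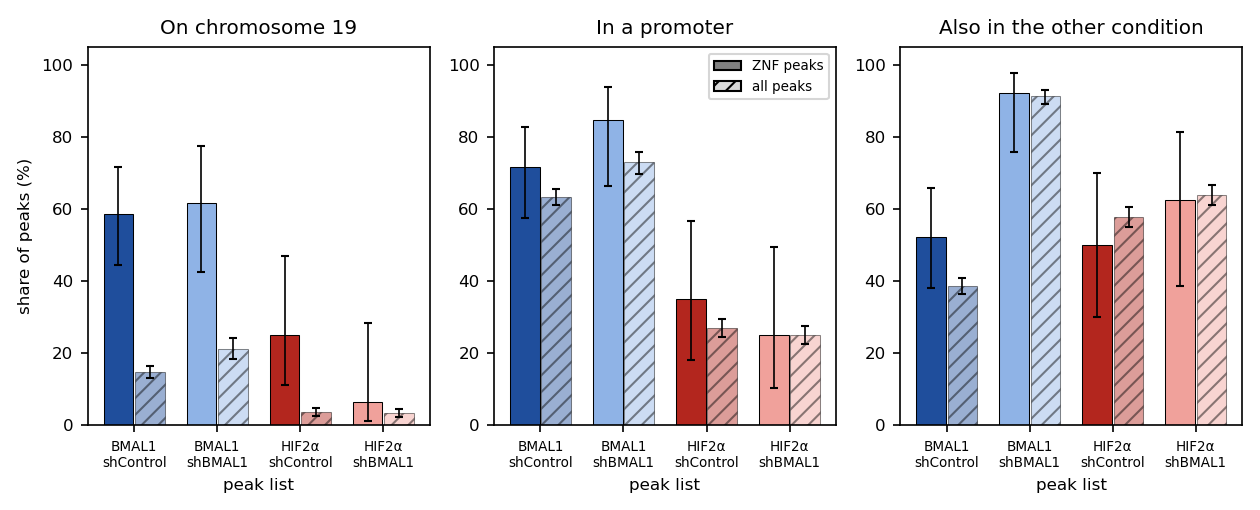
Share of peaks in percent (vertical axis) on chromosome 19, in a promoter and also called in the other shRNA condition with the same antibody, for ZNF peaks (plain bars) and all peaks (hatched) of the 4 lists. Error bars are 95% Wilson intervals over peaks. The chromosome 19 bars of ZNF peaks are 58.7% and 61.5% for BMAL1 and 25% and 6.25% for HIF2α, in shControl and shBMAL1 cells. All are above the bars of all peaks, and 50.4% of annotated ZNF genes lie on that chromosome. In the promoter panel the ZNF bars are within their intervals of the hatched bars.

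A group of the BMAL1 peaks at ZNF genes lay in the stretch from ZNF841 to ZNF761 (chr19:52567718-53965116), 1397 kb that hold 37 protein-coding genes, 29 of them ZNF genes. It carried 12 BMAL1 peaks at 11 ZNF genes in shControl cells, all in promoters, and no HIF2α peak at a ZNF gene in either condition. Over all of chromosome 19, 23 of 240 ZNF genes had a shControl BMAL1 peak (9.58%). HIF2α was called at 5 of the 240 (2.08%) in shControl and 1 (0.417%) in shBMAL1 cells. At those rates the lack of a HIF2α call among 29 genes is not particular to the stretch, which was picked for its BMAL1 peaks. In order of significance the genes were ZNF841, ZNF701, ZNF888, ZNF83, ZNF160, ZNF320, ZNF616, ZNF761, ZNF816, ZNF845 and ZNF525, with −log10 p from 65.1 at ZNF841 to 16.5 at ZNF525. The ZNF841 peak was also the strongest by fold (20.2), followed by ZNF701 (15.4) and the ZNF888 peak at ZNF321P (14.6). After knockdown 7 of the 12 were still called, at ZNF841, ZNF701, ZNF888, ZNF83, ZNF160, ZNF616 and ZNF761, and 1 new peak appeared at a noncoding start 3652 bp upstream of ZNF665.

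The windows of this stretch, shown above, were alike in sequence. All 12 windows of 200 bp held a GC box and none an E-box, and 11 of 12 held AGGCCCCGCC on the strand of the ZNF gene. On either strand that run was in 18 of the 46 ZNF windows of the list, in 7 of the 34 outside the stretch, in 202 of the 1766 other BMAL1 windows (11.4%) and in 12 of the 1204 HIF2α windows (0.997%). It was not restricted to the genes with a peak. In the 200 bases around the first start, 9 of the 11 ZNF genes of the stretch with a BMAL1 peak held it, and so did 7 of the 18 without. The GC box was in 10 of 11 and 16 of 18 of these start windows. Over all ZNF genes 60 of 476 start windows held the run (12.6%), and over all protein-coding genes 660 of 20136 did (3.28%). Since the run was picked as the most shared among these windows, its count in them is a description.

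The most significant HIF2α peaks at ZNF genes were all over 1 kb from the nearest protein-coding start. After ZNF254 (−log10 p 95.6, rank 35 of 1204), the most significant in shControl cells were at ZNF487 (−log10 p 45.7, fold 14.0), in an intron 2966 bp from an annotated start of the gene, and ZNF365 (−log10 p 45.3, fold 12.5), a gene known for genome stability at fragile sites, 208931 bp downstream of its start. Next were ZNF395 (−log10 p 43.8, fold 12.8), a hypoxia-inducible transcription factor gene, 1448 bp inside it, and ZNF469 (−log10 p 39.1, fold 10.5), the brittle cornea syndrome gene, 175478 bp upstream. Except for ZNF254, all of these were called in shBMAL1 cells, where ZNF365 had a −log10 p of 47.9, ZNF487 43.8 and the overlapping ZNF469 site 30.2. At ZNF487 the shBMAL1 summit lay 28 bp from the shControl one, and its 31 summit bases occurred 31 times in the genome, whereas those of the shControl summit occurred once.

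HIF2α peaks at ZNF starts were few. In shControl cells the 4 summits within 1 kb were at ZNF292 (−log10 p 23.6), ZNF653 (19.6), ZNF775 (18.1) and ZNF8 (13.2), the last of which was the weakest HIF2α member peak of the list. ZNF131, a BTB-domain zinc finger gene, had a HIF2α summit 3045 bp before its nearest protein-coding transcript but 164 bp from another annotated ZNF131 start (−log10 p 30.005 in shControl and 16.5 in shBMAL1 cells). ZNF326, whose protein couples splicing to transcript elongation, had a peak 41641 bp upstream in both conditions, with −log10 p of 24.1 and 20.9.

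Both antibodies were called at 7 of the 50 ZNF genes with a peak in shControl cells (14%). Over all protein-coding genes with a peak there, the count was 378 of 2215 (17.1%). At 6 of the 7 ZNF genes the peaks overlapped. These were ZNF254, ZNF395, ZNF479, ZNF627, ZNF653 and ZNF775. The 6 overlapping peaks were 13.0% of the 46 BMAL1 peaks (interval 6.12 to 25.7%), next to 18.5% of all BMAL1 peaks, and 30% of the 20 HIF2α peaks (interval 14.5 to 51.9%), next to 27.9% of all HIF2α peaks. The BMAL1 and HIF2α summits at these sites were 2 to 60 bp apart, with a median of 28.5 bp. At ZNF217, an oncogene amplified in carcinomas, the peaks were at different places. The BMAL1 summit was 524 bp upstream of a start with the E-box shown above (−log10 p 43.4, fold 13.2), and the HIF2α summit was 2815 bp upstream of the nearest protein-coding start (−log10 p 23.2, fold 7.48).

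The shared sites were of mixed kind. ZNF653 (BMAL1 −log10 p 29.9, HIF2α 19.6) and ZNF775 (23.1 and 18.1) were shared at their own starts. ZNF627 (43.0 and 19.5) was shared in an intron of the gene, 9038 bp downstream of its nearest protein-coding start. ZNF395 was shared in an intron of the gene, which FBXO16 overlaps, 1437 bp from the start, with a HIF2α −log10 p of 43.8 and a BMAL1 value of 14.3. Its other BMAL1 peak, 704 bp inside and with a −log10 p of 23.3, was called for BMAL1 alone.

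The other 2 shared sites lay far from the ZNF gene. At ZNF254 the 31 bases at the HIF2α summit occurred 264 times in the genome. At ZNF479 the peak was 46583 bp upstream, on the pseudogene MTND2P6, and the 31 bases at the shControl HIF2α summit also occurred once in the mitochondrial genome, whereas those of the other 3 ZNF479 summits occurred once in the whole genome. ZNF479 was the single member in all 4 lists, with −log10 p of 37.6 and 50.04 for BMAL1 and 22.8 and 59.7 for HIF2α in shControl and shBMAL1 cells. Whether these sites also stood out in the IgG libraries was not analysed here. Over the shControl lists, 5 of 46 BMAL1 and 3 of 20 HIF2α ZNF summits had 31 bases in more than 1 copy, next to 6.30% and 5.73% of all peaks.

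In shBMAL1 cells sharing was seen at a single site, with 1 of 26 BMAL1 peaks at ZNF genes overlapping a HIF2α peak, next to 12.8% of all, and 1 of 16 HIF2α peaks overlapping a BMAL1 peak, next to 9.00%. Both were the ZNF479 site, where the summits were 1 bp apart.

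After BMAL1 knockdown, 24 of the 46 BMAL1 peaks at ZNF genes still overlapped a called BMAL1 peak (52.2%, interval 38.1 to 65.9%), next to 38.7% of all BMAL1 peaks. On chromosome 19, 15 of 27 ZNF peaks were kept (55.6%), next to 57.7% of all BMAL1 peaks on that chromosome, and on the other chromosomes 9 of 19 (47.4%), next to 35.4%. In promoters 20 of 33 were kept (60.6%), and outside them 4 of 13 (30.8%), next to 46.2% and 25.7% of all BMAL1 peaks. The ZNF peaks on chromosome 19 were thus kept at about the rate of the chromosome. With all lists shortened to 768 peaks by p, 20 of 24 ZNF peaks were kept (83.3%, interval 64.1 to 93.3%), next to 560 of 768 BMAL1 peaks in all (72.9%). The shBMAL1 list was built from fewer libraries, and the effects of the knockdown and of the smaller number of libraries on these counts cannot be told apart.

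The kept BMAL1 peaks were the stronger ones before knockdown. Their shControl −log10 p ranged from 21.1 at ZNF57 to 299 at ZNF7 with a median of 46.0, whereas the 22 peaks not called in shBMAL1 cells ranged from 10.1 at ZNF771 to 66.9 at ZNF254 with a median of 19.96. Of the kept peaks 21 of 24 were in the upper part of the list, above its median p, and of the lost peaks 6 of 22. The whole list was alike in this, with 596 of 701 kept and 310 of 1111 lost BMAL1 peaks above the median p, and medians of 51.9 and 17.8. The median fold was 11.2 for kept and 6.35 for lost peaks. Kept summits moved little, with a median shift of 15.5 bp and 21 of 24 within 50 bp. The largest shift, 326 bp, was at ZNF784, where the shBMAL1 summit lay 77 bp before the start. The weakest kept member peak in shBMAL1 cells was at ZNF57, with a −log10 p of 11.98 and a fold of 3.80.

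**Figure D4:**
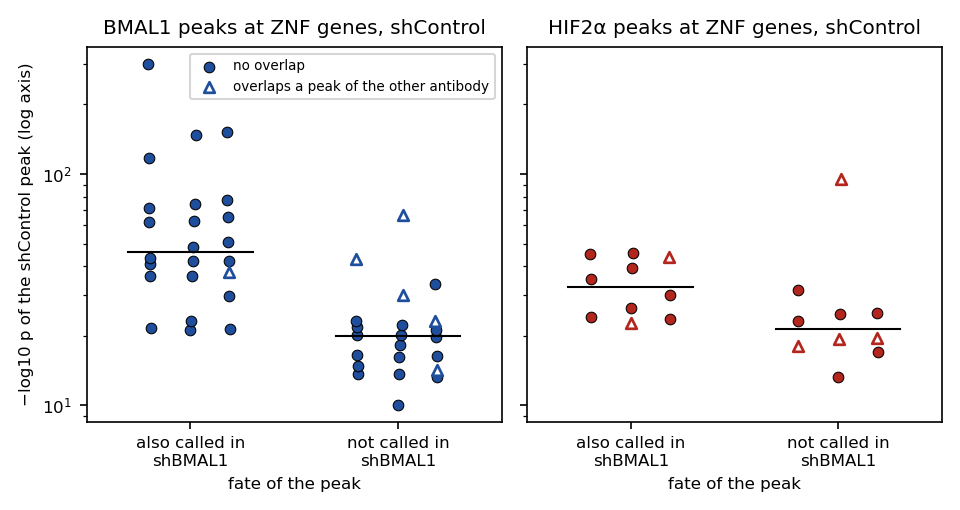
The −log10 p of each shControl ZNF peak (vertical axis, log scale), for BMAL1 (left) and HIF2α (right), split by whether the peak was also called in shBMAL1 cells. Triangles are sites shared by both antibodies and horizontal lines are medians. The BMAL1 medians are 46.0 for kept and 19.96 for lost peaks, and 5 of the 6 BMAL1 triangles are among the lost.

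For HIF2α, 10 of 20 ZNF peaks were also called in shBMAL1 cells (50%, interval 29.9 to 70.1%), next to 57.7% of all HIF2α peaks. None of the 5 on chromosome 19 was kept, next to 13 of 42 HIF2α peaks there in all. On the other chromosomes 10 of 15 were kept, next to 682 of 1162 HIF2α peaks in all (58.7%). The whole list thus also kept a smaller share on chromosome 19 than elsewhere. The 5 chromosome 19 sites that were not kept were at ZNF254, ZNF653, ZNF627, ZNF628 and ZNF8. HIF2α was called in both conditions at ZNF131, ZNF292, ZNF326, ZNF365, ZNF395, ZNF469, ZNF479 and ZNF487.

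At the sites shared by both antibodies, 1 of 6 BMAL1 peaks was kept, that of ZNF479, compared with 23 of 40 BMAL1 peaks that HIF2α did not share. Over all BMAL1 peaks the shares were 22.7% of shared and 42.3% of unshared sites. For HIF2α, 2 of 6 shared and 8 of 14 unshared ZNF peaks were kept. Over all HIF2α peaks the shares were 60.4% of shared and 56.7% of unshared sites, so the whole list did not show fewer kept at shared sites. ZNF254, ZNF627, ZNF653 and ZNF775 lost the calls of both antibodies. At ZNF395 the BMAL1 call was lost and the HIF2α call kept, with a −log10 p of 43.8 in shControl and 21.5 in shBMAL1 cells and a fold of 12.8 and 8.04.

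Some ZNF peaks were called in shBMAL1 cells alone, 2 of 26 for BMAL1 and 6 of 16 for HIF2α. For BMAL1, 24 of 26 ZNF peaks were also in the shControl list, next to 91.3% of all, and for HIF2α 10 of 16 were, next to 63.9%. ZNF665 (−log10 p 28.7) and ZNF862 (18.2), the latter 3 bp from its start, had BMAL1 peaks in shBMAL1 cells only. ZNF436 (26.98) and ZNF133 (13.5) had HIF2α peaks in shBMAL1 cells only, 24093 and 35335 bp upstream, the former in a coding exon of TCEA3. ZNF7 and ZNF792 were BMAL1 members in shControl cells whose HIF2α peak was called after knockdown alone. At ZNF7 the HIF2α summit was elsewhere, 7525 bp downstream of the nearest protein-coding start, and the BMAL1 peak was still called. At ZNF792 the shBMAL1 HIF2α summit was 15 bp and the shControl BMAL1 summit 160 bp downstream of the nearest protein-coding start. The ZNF792 HIF2α peak was the weakest member peak of any list, with a −log10 p of 9.45 where its list began at 8.92.

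Some ZNF genes had several peaks in a list. For BMAL1 these were ZNF77, ZNF195, ZNF395, ZNF414, ZNF706, ZNF846 and ZNF888, and for HIF2α they were ZNF395 and ZNF469. At ZNF395, HIF2α was called at 3 sites in shBMAL1 cells. They lay 1440 and 9369 bp downstream and 9409 bp upstream, each measured from its own nearest protein-coding start. The first 2 were also called in shControl cells, with −log10 p of 43.8 and 35.2. At ZNF469, HIF2α was called at 2 sites in shControl cells and 3 in shBMAL1 cells, all between 170302 and 175491 bp upstream. At ZNF706, neither BMAL1 peak was called after knockdown. They lay 141 bp upstream (−log10 p 16.2) and 42524 bp downstream (21.8), each measured from its own nearest protein-coding start. At ZNF77 the peak at a noncoding start 5890 bp upstream (−log10 p 36.2) was kept and the one 213 bp before the gene's start (14.7) was not.

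ZNF peaks had a higher median fold enrichment than all peaks of their list. It was 8.56 against 7.13 for all BMAL1 peaks and 8.55 against 6.87 for all HIF2α peaks in shControl cells, and 12.6 against 10.5 and 8.69 against 7.40 in shBMAL1 cells. In shControl cells 27 of 46 BMAL1 and 16 of 20 HIF2α peaks were above the median p of their list. In shBMAL1 cells 14 of 26 BMAL1 and 11 of 16 HIF2α peaks were. No interval was computed for these medians. The weakest member peaks in shControl cells were ZNF771 for BMAL1 (−log10 p 10.1, list minimum 8.64) and ZNF8 for HIF2α (13.2, list minimum 8.83).

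The E-box was about as frequent at ZNF peaks as in the whole BMAL1 list. In windows of 200 bp centred on the summit and read on both strands, 6 of 46 ZNF peaks held CACGTG (13.0%, interval 6.12 to 25.7%), next to 12.9% of all BMAL1 peaks and 5.43% of windows 2000 bp to each side of the ZNF peaks. The 6 were at ZNF195, ZNF217, ZNF395, ZNF669, ZNF706 and ZNF771, and those at ZNF195 and ZNF217 were kept after knockdown. The GC box was in 39 of 46 ZNF windows (84.8%, interval 71.8 to 92.4%), next to 61.6% of all BMAL1 windows and 6.52% of the flanks. GC content at the summits had a median of 67.5% at ZNF peaks and 65.5% at all peaks. For comparison, CACGTG was in 6.42% and GGGCGG in 47.4% of the 200 bp start windows of all protein-coding genes. In shBMAL1 cells 24 of 26 BMAL1 windows at ZNF genes held a GC box (92.3%), next to 76.9% of all, and 2 an E-box (7.69%), next to 6.01%.

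The core of the hypoxia response element, ACGTG or GCGTG, was in 11 of 20 HIF2α windows at ZNF genes (55%, interval 34.2 to 74.2%), next to 70.8% of all HIF2α windows and 17.5% of the flanks. In windows of 100 bp it was in 4 of 20 (20%, interval 8.07 to 41.6%), next to 43.4% of all HIF2α windows, which lay above the interval. The shBMAL1 HIF2α list did not repeat this. There the core was in 6 of 16 windows of 100 bp (37.5%, interval 18.5 to 61.4%), next to 42.6% of all. In windows of 200 bp it was in 10 of 16 (62.5%), next to 69.5% of all. Every E-box contains this core. The AP-1 motif, TGACTCA or TGAGTCA, was in 6 of 20 (30%), next to 27.5% of all, and these were both ZNF469 windows and those of ZNF19, ZNF326, ZNF217 and ZNF627. At BMAL1 peaks of ZNF genes AP-1 was in 2 of 46 windows (4.35%), next to 13.0% of all. The CCAAT box was in 19 of 46 BMAL1 windows at ZNF genes (41.3%), next to 32.1% of all BMAL1 windows and 22.8% of the flanks. It was in 5 of 20 HIF2α windows (25%), next to 24.003% of all and 32.5% of the flanks. An E-box was in 2 of 20 HIF2α windows, at ZNF395 and ZNF318, and the ZNF318 peak was not called in shBMAL1 cells. ZNF318, whose protein controls the alternative expression of IgD in B cells, had a HIF2α −log10 p of 31.7 at a site 14319 bp upstream.

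**Figure D5:**
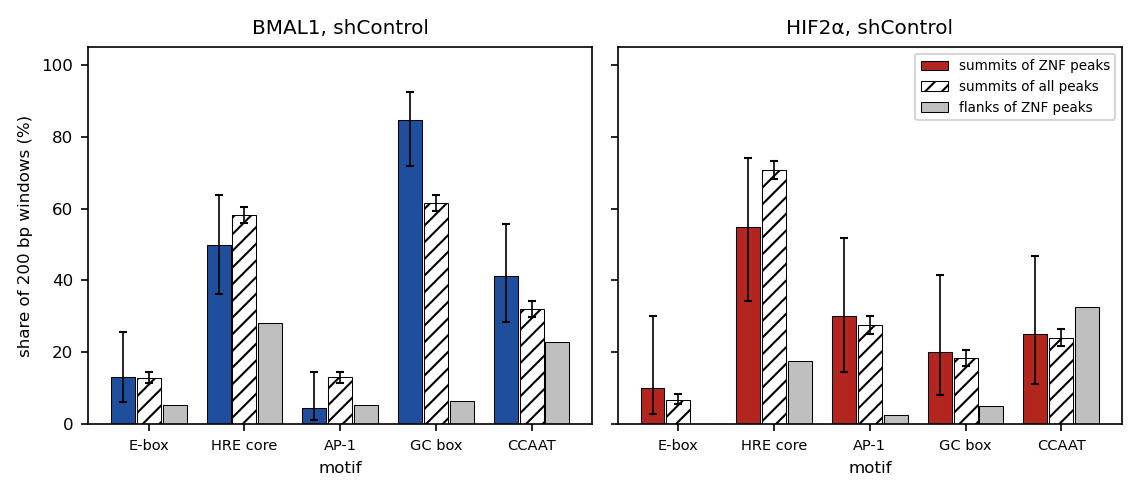
Share of 200 bp windows in percent (vertical axis) that held each motif (horizontal axis), for the summits of ZNF peaks (filled), the summits of all peaks (hatched) and the flanks of ZNF peaks 2000 bp away (grey), for BMAL1 and HIF2α in shControl cells. Error bars are 95% Wilson intervals over windows. For BMAL1 the GC box bar of ZNF peaks, 84.8%, stands above that of all peaks, 61.6%, and the E-box bars are level at 13.0% and 12.9%.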

How the data were processed

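CUT&RUN libraries were aligned by the authors to hg19 with Bowtie2 2.5.3, duplicates were removed with SAMtools 1.6 and sambamba, peaks were called with MACS2 2.2.9.1 and blacklisted regions were removed with bedtools 2.31.1. The deposited lists, 1 pooled list per group, hold for each peak its coordinates and summit, a fold enrichment (a ratio over background), and the −log10 p that the authors' peak caller wrote. The −log10 q column was not used here, and peaks off chromosomes 1 to 22, X and Y were left out. Whether IgG served as the calling control was not given in the sources used here. The labels call the replicates biological and the paper's reporting form calls them technical. The lists hold no read counts, so the depth behind each value is not known from them.

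Summits were assigned to the nearest protein-coding transcript start (GENCODE 44 lifted to hg19) in Python 3.11.15 with pandas 2.3.3 and pysam 0.24.0. Overlap meant at least 1 bp. Copies were exact matches, on both strands, of the 31 bases at the summit. Assignment, overlap and copy counts were checked on simulated data. Shares carry 95% Wilson intervals, and no test was run. Named genes were those in all 4 lists, with both antibodies in shControl cells, with the most significant peak of each list (10 for shControl BMAL1, 5 for each other list), with several peaks in a list, in shBMAL1 lists only, or weakest in a list, and others were chosen after their values were seen. The window of 1 further HIF2α summit is not reported here. The rule, members and gene lists were chosen with earlier results of these data known.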

Additional observations from a re-analysis of the deposited data

How the results depend on the processing

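Of 160 alternative values for 46 results, 140 stayed within the interval of the reported share, within 1.5 times the count or close to the median, and 20 moved. With a −log10 p of at least 20, ZNF peaks were 2.59% of HIF2α shControl peaks (1.66% reported), 7 ZNF genes had a HIF2α peak in shBMAL1 cells (12), promoters held 10% of the latter (25%), chromosome 19 held 6.67% of HIF2α ZNF peaks in shControl cells (25%) and 0% in shBMAL1 cells (6.25%), and 5.71% of BMAL1 (13.0%) and 13.3% of HIF2α (30%) ZNF peaks in shControl cells were shared. In lists of equal length, 22 ZNF genes had a shControl BMAL1 peak (39), 83.3% of those peaks were kept (52.2%) and chromosome 19 held 0% of HIF2α ZNF peaks in shBMAL1 cells. With promoters of 2500 bp to each side, 87.0% of shControl and 96.2% of shBMAL1 BMAL1 ZNF peaks were in one (71.7% and 84.6%). In 100 bp motif windows, AP-1 was at 0% in both BMAL1 lists (4.35% and 3.85%), the CCAAT box at 23.9% and 15.4% in the BMAL1 lists (41.3% and 30.8%) and at 10% and 0% in the HIF2α lists (25% and 12.5%), and the hypoxia response core at 20% and 37.5% in the HIF2α lists (55% and 62.5%). The shControl value then lay below the 43.4% of all HIF2α windows, which its interval of 8.07 to 41.6% did not hold. The interval of the shBMAL1 value, 18.5 to 61.4%, held the 42.6% of all HIF2α windows of that list. A shorter window can only hold fewer matches, and a stricter threshold fewer peaks. The cause of the other shifts was not tested. Keeping only peaks whose summit bases occur once, an alternative chosen after seeing the data, gave 14 values, none of which moved.

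No paired analysis was possible because each list merges the libraries of its group, and leaving out a replicate was not run for the same reason. Protein sequences of the members were not used here. With 1 list per group, 20 or fewer HIF2α peaks in a list and no read counts in the lists, differences of the sizes seen between HIF2α ZNF peaks and all HIF2α peaks were within counting error for promoters, sharing and retention.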

Other observations

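Related zinc finger families and the corepressors that KRAB zinc finger proteins recruit were also looked up, from lists chosen with earlier results known. In shControl cells BMAL1 peaks were assigned to 1 of 18 ZFP genes (ZFP41, fold 21.6), 2 of 18 ZSCAN genes (ZSCAN10 and ZSCAN32), 0 of 7 ZKSCAN genes, 6 of 36 ZBTB genes and 4 of 18 KLF genes (KLF10, KLF11, KLF14 and KLF16), next to 8.07% of all protein-coding genes. HIF2α peaks were assigned to 2 of 18 ZFP genes (ZFP36, which encodes an mRNA decay factor, and ZFP64), 3 of 36 ZBTB genes (ZBTB17, ZBTB20 and ZBTB38), 2 of 18 KLF genes (KLF10 and KLF6) and none of the ZSCAN or ZKSCAN genes, next to 4.81% of all protein-coding genes. With families of this size the intervals are wide, for example 7.87 to 31.9% for the ZBTB genes with BMAL1.

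Among 15 corepressor genes, CHD3, a chromatin remodeller subunit gene, had a BMAL1 peak in shControl cells (−log10 p 15.0), HDAC1, a histone deacetylase gene, a HIF2α peak in shControl cells (20.4), and UHRF1, a gene for a DNA methylation maintenance factor, a BMAL1 peak in shBMAL1 cells (14.0). The CHD3 summit was 1003 bp and the UHRF1 summit 4801 bp downstream of the nearest protein-coding start. In shControl cells each antibody was thus at 1 of 15 genes (6.67%), next to 8.07% of all protein-coding genes for BMAL1 and 4.81% for HIF2α. Each of these was called in a single list, and no peak in any of the 4 lists was assigned to TRIM28 or SETDB1. Most genes had no peak, since 2455 of 20136 protein-coding genes had one in any list.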
